A study of Mus musculus with 48 samples.

Results

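Of the 24054 genes counted in this series, 10 are described here: long non-coding RNAs chosen by name because they are abundant in many mouse cells or expressed from an imprinted domain. Malat1 and Neat1 stay in the nucleus. Gas5, Snhg1 and Snhg12 are spliced RNAs whose introns carry small nucleolar RNAs, and Dleu2 carries microRNAs in an intron. Kcnq1ot1, Meg3, Rian and Mirg are expressed from 1 parental allele. All 10 have a line in the count table. RNA-seq was done on 48 mouse libraries in 16 groups of 3. Macrophages and neutrophils sorted from tumours of 4 lines (AT3, E0771, 2208L and T11) gave 24 of them. The other 24 were made from 8 cultured lines of mouse breast tumours: PyMT-N, PyMT-M, AT3 and E0771, labelled C57BL/6, and 4T1, 67NR, 2208L and T11, labelled BALB/C. Live CD45+ CD11b+ cells were sorted as Ly6G- Ly6C- F4/80+ macrophages or as Ly6G+ neutrophils with medium to low Ly6C. Lines were at passage 7 (PyMT-M), 14 (PyMT-N and E0771), 15 (AT3), 19 (67NR) or 15 to 20 (4T1, 2208L and T11). E0771 was grown in RPMI medium with HEPES and the other lines in high-glucose DMEM. Each line stands for 1 cultured tumour model. The labels say that samples were triplicates without naming separate cultures or animals, so p-values measure the spread between these libraries. Column names give macrophages and neutrophils of each tumour the same numbers. Whether a number stands for 1 animal is not stated in the sources used here.

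Malat1 is a nuclear RNA of the speckles that hold splicing factors, and Neat1, its neighbour on chromosome 19, is the scaffold of paraspeckles, nuclear bodies that also need the proteins Sfpq and Nono. The snoRNA host RNAs begin with a stretch of pyrimidines like that of ribosomal protein mRNAs, and once spliced they are cleared during translation by nonsense-mediated decay, so that the snoRNAs in their introns are the stable products. Kcnq1ot1 runs antisense through Kcnq1 from the paternal allele and silences neighbouring genes on that chromosome, while Meg3, Rian and Mirg come from the maternal allele of the Dlk1-Dio3 domain, whose coding genes Dlk1 and Rtl1 are expressed from the paternal one.

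In the GENCODE M21 annotation of GRCm38, Malat1 lies at chr19:5795690-5802672 and Neat1 at chr19:5824708-5845478, both on the minus strand and each 1 unspliced gene of 6.983 and 20.771 kb. Gas5 lies at chr1:161034422-161038539, Snhg1 at chr19:8723475-8726443 and Snhg12 at chr4:132308623-132311024, all on the plus strand. Dleu2 lies on the minus strand at chr14:61602839-61682373. Kcnq1ot1 fills 93.092 kb of the minus strand, chr7:143203458-143296549, inside Kcnq1. Meg3 (chr12:109541001-109571726), Rian (chr12:109603940-109661716) and Mirg (chr12:109729764-109749460) follow each other on the plus strand. The sources used here give no strand for the counting, so reads of Kcnq1ot1 and of the Kcnq1 introns it overlaps cannot be told apart.

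RefSeq starts of the 3 snoRNA hosts, which are set beside ribosomal protein mRNAs below, are printed to show the run of pyrimidines at each. Each window holds 50 bases either side of the start on GRCm38.p6, 5′ to 3′, and capitals mark the unbroken run of C and T over the start base. For Gas5 the downstream of its 2 listed starts is shown, and the run at the other is not given.
Gas5, chr1:161035116-161035215, plus strand: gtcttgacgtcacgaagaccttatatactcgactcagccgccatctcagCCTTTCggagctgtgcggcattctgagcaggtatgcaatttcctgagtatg
Snhg1, chr19:8723437-8723536, plus strand: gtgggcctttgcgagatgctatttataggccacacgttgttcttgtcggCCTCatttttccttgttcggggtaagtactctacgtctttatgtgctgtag
Snhg12, chr4:132308628-132308727, plus strand: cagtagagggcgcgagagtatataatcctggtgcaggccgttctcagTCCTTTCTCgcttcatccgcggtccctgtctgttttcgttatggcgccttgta
The runs are 6, 4 and 9 bases long. That of Snhg1 is shorter than the 6 bases taken here as a long run, so the windows do not show a long run for all 3. Among 32851 RefSeq mouse starts of 27025 genes, 7.25% had a run of at least 6, 14.0% of at least 4 and 3.03% of at least 9.

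The Kcnq1ot1 promoter is printed because Kcnq1ot1 is the imprinted member that lay furthest above background. Its 300-base window covers chr7:143296498-143296797 on the minus strand, and capitals mark CCAAT.
Kcnq1ot1: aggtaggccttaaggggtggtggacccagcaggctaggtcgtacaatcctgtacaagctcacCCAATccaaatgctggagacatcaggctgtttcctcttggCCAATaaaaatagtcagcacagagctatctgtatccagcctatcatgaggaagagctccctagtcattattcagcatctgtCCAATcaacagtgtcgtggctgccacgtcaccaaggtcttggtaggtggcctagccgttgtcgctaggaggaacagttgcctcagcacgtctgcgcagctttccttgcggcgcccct
It holds 3 copies of CCAAT. Counting both strands, 3.21% of the 32851 promoters held at least 3 and 37.4% at least 1. Dleu2 contains Mir15a and Mir16-1 on its own strand, whose mature RNAs share their seed (bases 2 to 8, in capitals). Counts of Dleu2 measure the host RNA and not these mature products.
mmu-miR-15a-5p, chr14:61632075-61632096, minus strand: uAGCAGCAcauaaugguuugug
mmu-miR-16-5p, chr14:61631936-61631957, minus strand: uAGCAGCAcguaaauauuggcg
By the RefSeq annotation 10 microRNA genes lie inside Mirg, 3 inside Rian and 2 inside Meg3.

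Counts outside Rn45s, the ribosomal RNA precursor, ran from 683150 to 1755895 per macrophage library, 470712 to 1185233 per neutrophil library and 1893268 to 5749088 per line library, and Rn45s itself took 55.0% to 76.2%, 26.8% to 70.3% and 3.88% to 14.9% of the total. Levels are given as CPM, a library's counts scaled to a common total outside Rn45s. The 10 markers of neutrophils summed to 43.4 to 927 CPM in macrophages and 2581 to 24164 CPM in neutrophils. The 10 markers of macrophages that the table lists summed to 6993 to 25570 CPM in macrophages and 858 to 7523 CPM in neutrophils, and no listed marker of the 2 was at 0 over either cell type. Neutrophils of the 2208L tumour held most of these macrophage RNAs, 5476 to 7523 CPM. Library 1 of E0771 macrophages and of E0771 neutrophils is labelled BALB/C and the others C57BL/6. Counts that do not come from expressed genes were gauged from the genes of odorant and pheromone receptors, which few cells outside the nose transcribe. Per kb of exon these took 0.163 to 0.608 CPM in macrophages, 0.721 to 3.53 CPM in neutrophils and 0.115 to 0.554 CPM in lines. A member with a CPM per kb of exon 10 or more times this receptor level, taken in the same library, is called above background.

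Malat1 was the most abundant of the 10 in sorted cells. Its level ran from 3043 to 9914 CPM over 12 macrophage libraries (median 6302), from 2250.5 to 10567 CPM over 12 neutrophil libraries (median 7699) and from 149 to 1259 CPM over 24 line libraries (median 336). The lowest sorted library lay above the highest line library. Among all genes Malat1 ranked 3 to 15 in macrophages, 2 to 4 in neutrophils and 31 to 1347 in lines. It made up 83.9% to 91.9% of the counts of the 10 members in macrophages, 69.7% to 91.9% in neutrophils and 15.6% to 66.1% in lines. The 10 together took 0.361% to 1.09% of the counts outside Rn45s in macrophages, 0.323% to 1.16% in neutrophils and 0.0850% to 0.334% in lines. Per kb, Malat1 stood 754 to 6165 times the receptor level in macrophages, 91.2 to 2000.1 times in neutrophils and 40.8 to 900.1 times in lines.

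**Figure D1:**
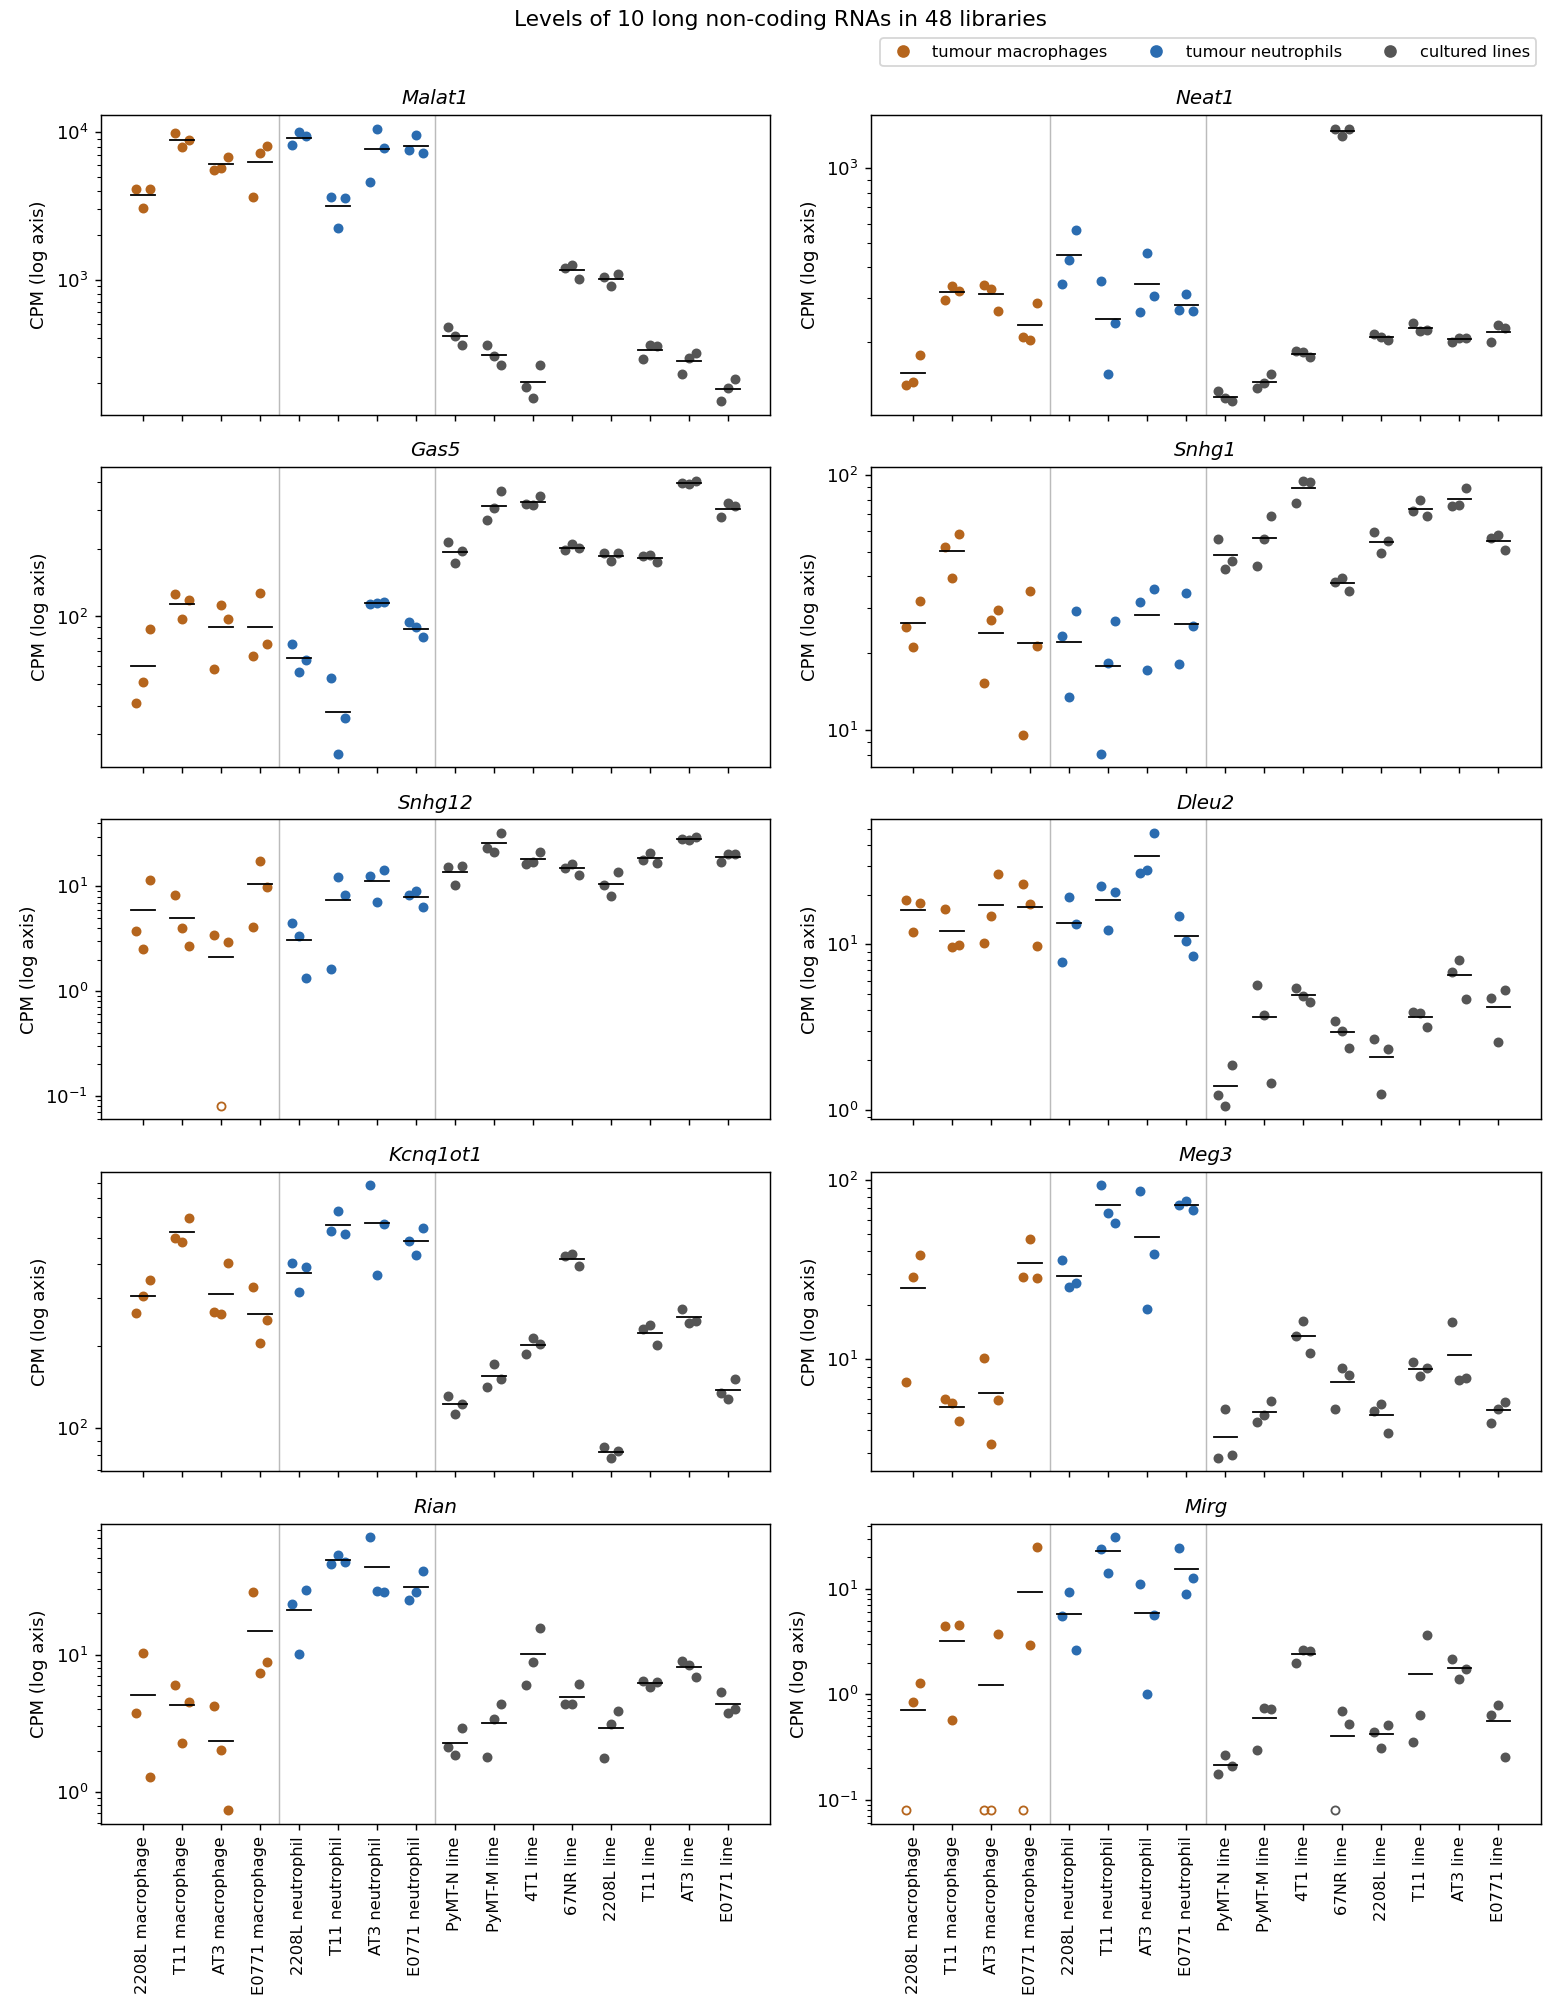
Level of each of the 10 RNAs in every library, in CPM of the counts outside Rn45s on a log axis, with the 16 groups along the x axis; points are libraries, bars are group means and open points are libraries with 0 counts. Malat1 lies at 2250.5 CPM or more in all 24 sorted libraries and at 1259 CPM or less in all 24 line libraries, and Neat1 is highest in 67NR (1353 to 1443 CPM).

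In the lines Malat1 split into a high and a low set. Levels were 186, 158 and 263 CPM in 4T1 against 1203, 1259 and 1016 CPM in 67NR, and 1036, 909 and 1087 CPM in 2208L against 291, 359.9 and 353 CPM in T11. They were 473, 411 and 357 CPM in PyMT-N against 362, 305 and 262 CPM in PyMT-M, and 228, 292 and 319 CPM in AT3 against 149, 184 and 211 CPM in E0771. Thus 67NR (1159 ± 127 CPM, SD, n = 3) and 2208L (1011 ± 91.3) stood above the other 6 lines, whose means ran from 414 ± 58.1 in PyMT-N to 181 ± 30.9 in E0771 with each neighbour in that order overlapping the next. By edgeR's quasi-likelihood test, log2 differences from TMM-scaled counts were −2.68 ± 0.14 (SE) for 4T1 against 67NR (adjusted p = 9.46e-31), 1.73 ± 0.13 for 2208L against T11 (1.21e-20), 0.71 ± 0.13 for PyMT-N against PyMT-M (2.36e-06) and 0.53 ± 0.13 for AT3 against E0771 (0.000615). The libraries of PyMT-N and PyMT-M overlapped by 1 value, and those of the other 3 pairs did not overlap. For AT3 against E0771 the adjusted p was 0.0762 by DESeq2.

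Neat1 was high in a single line. It had 184, 182 and 174 CPM in 4T1 against 1442, 1353 and 1443 CPM in 67NR, a log2 difference of −3.14 ± 0.10 (adjusted p = 2.25e-46) and the largest of any member among the line pairs. 2208L had 216, 209.5 and 204 CPM against 239, 222 and 223 CPM in T11, the line next to 67NR. Below T11 the order was E0771, 2208L, AT3, 4T1, PyMT-M and PyMT-N, which was lowest at 121 ± 6.07 CPM, and from T11 to AT3 neighbours overlapped. In PyMT-N against PyMT-M the log2 difference was 0.11 and in 2208L against T11 0.01, neither called. Without factors these were −0.20, which was called (adjusted p = 0.0239), and −0.12. AT3 (200.3, 208 and 208 CPM) lay lower than E0771 (200.1, 234 and 228 CPM) by a log2 difference of −0.22 ± 0.09 (adjusted p = 0.0416), with overlapping libraries. That call was lost without E0771 library 2 (−0.13) or 3 (−0.20), without AT3 library 1 (−0.12) or 2 (−0.23), and with either other scaling (−0.02 with factors from genes above background, −0.10 without factors).

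Because both RNAs come from 1 library, their ratio does not depend on how libraries were scaled. Malat1 over Neat1 was 1.10 in 4T1 against 0.817 in 67NR, where both RNAs were high, 4.81 in 2208L against 1.46 in T11, 3.41 in PyMT-N against 2.22 in PyMT-M and 1.35 in AT3 against 0.814 in E0771 (geometric means of 3 libraries). In sorted cells it ran from 19.5 to 27.9 over the 4 macrophage groups and from 13.3 to 28.5 over the 4 neutrophil groups. Malat1 therefore outweighed Neat1 more in each sorted group than in any line group, whose highest value was 4.81. In 4T1 against 67NR Sfpq had a log2 difference of −0.19 and Nono of 0.16, neither called, and Pspc1, another paraspeckle protein, was higher in 4T1 by 0.72. Of 14 paraspeckle proteins tested, 2 were higher and 4 lower in 4T1 than in 67NR, where 47.8% of all genes were called (median −0.06, against 0.11 over all genes). In 2208L against T11, 1 was higher and 9 lower, where 41.4% of all genes were called (median −0.39, against −0.03 over all genes), and Pspc1 fell by 0.72. Of the 14 speckle and SR proteins tested, which share the compartment of Malat1, 4 were higher and 2 lower in 4T1 than in 67NR, and 0 were higher and 7 lower in 2208L than in T11, shares near those over all genes. Their medians were 0.07 and −0.26.

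Gas5 set 4 lines above the other 4. It had 393, 388 and 402 CPM in AT3 against 278, 319.7 and 311 CPM in E0771, and 317, 313 and 344 CPM in 4T1 against 198, 210.0 and 201 CPM in 67NR. Its levels were 216, 173 and 195 CPM in PyMT-N against 268, 304 and 363 CPM in PyMT-M, and 191, 176 and 192 CPM in 2208L against 186, 187 and 174 CPM in T11. AT3 overlapped no other line, 4T1, PyMT-M and E0771 overlapped each other, and 67NR, PyMT-N, 2208L and T11 formed a lower set of overlapping neighbours at 183 to 203 CPM. Log2 differences were 0.51 ± 0.10 for 4T1 against 67NR (adjusted p = 4.67e-06), −0.37 ± 0.09 for PyMT-N against PyMT-M (0.000711) and 0.27 ± 0.09 for AT3 against E0771 (0.0124). The last was lost without E0771 library 1 (0.15) or AT3 library 3 (0.16). The difference of 0.16 between 2208L and T11 was not called (adjusted p = 0.214).

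Snhg1 was highest in 4T1 and lowest in 67NR. It had 77.3, 94.7 and 93.6 CPM in 4T1 against 38.1, 39.5 and 35.0 CPM in 67NR, a log2 difference of 1.07 ± 0.13 (adjusted p = 9.34e-12), with no overlap. In AT3 it had 75.3, 76.5 and 88.6 CPM against 56.6, 58.1 and 50.7 CPM in E0771 (0.43 ± 0.11, adjusted p = 0.0012). That difference was not called without AT3 library 3 (0.26). 2208L had 60.0, 49.2 and 54.8 CPM against 72.4, 79.9 and 69.2 CPM in T11. The groups do not overlap, but the call (−0.31 ± 0.12, adjusted p = 0.0372) was lost without T11 library 1 (−0.32) or 2 (−0.22), without 2208L library 2 (−0.24) or 3 (−0.30) and by DESeq2 (adjusted p = 0.0908). PyMT-N and PyMT-M differed by 0.11, not called, and by −0.19 without factors.

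Snhg12 was the least abundant of the 3 hosts, at 8.10 to 32.4 CPM in lines (26 to 161 counts). It was lower in PyMT-N (15.3, 10.3 and 15.8 CPM) than in PyMT-M (23.5, 21.3 and 32.4 CPM) by −0.57 ± 0.17 log2 (adjusted p = 0.00428). The call was lost without PyMT-M library 3 (−0.42) or PyMT-N library 2 (−0.43). In 2208L it had 10.2, 8.10 and 13.6 CPM against 17.8, 20.8 and 16.9 CPM in T11 (−0.67 ± 0.20, adjusted p = 0.00487), lost without T11 library 2 (−0.54). AT3 (28.5, 28 and 29.6 CPM) stood above E0771 (17.1, 20.4 and 20.4 CPM) by 0.44 ± 0.16 (adjusted p = 0.0159), lost without E0771 library 1 (0.31) or AT3 library 3 (0.33) and by DESeq2 (adjusted p = 0.0639). None of these 3 pairs of groups overlapped.

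The ratio of Gas5 to Snhg1, as group means, was 2.20 to 4.48 over the macrophage groups, 2.26 to 4.28 over the neutrophil groups and 2.48 to 5.57 over the line groups. Single libraries ran from 1.62 to 7 in macrophages, 1.31 to 6.71 in neutrophils and 2.35 to 6.14 in lines. T11 neutrophils alone spanned 1.31 to 6.60. Snhg1 had 7 to 70 counts per macrophage library, 5 to 25 per neutrophil library and 131 to 440 per line library. Of 16 other non-coding snoRNA hosts listed, 10 have a line in the table and 9 were tested in the lines. In AT3 against E0771, 6 were higher and 0 lower (median 0.46, against 0.08 over all genes), among them Snhg18 (2.56) and Snhg3 (0.92). In 2208L against T11, 1 was higher, Snhg18 (1.39), and 5 lower (median −0.40, against −0.03), with Snhg10 at −1.88 and Snhg7 at −1.14. In 4T1 against 67NR, 1 was higher and 3 lower, and in PyMT-N against PyMT-M 1 was higher and 0 lower. The 22 tested mRNAs with a pyrimidine start, most of them for ribosomal proteins, went both ways in the lines: 2 were higher and 7 lower in AT3 than in E0771, 4 higher and 7 lower in 4T1 than in 67NR, 1 higher and 11 lower in 2208L than in T11, and 5 higher and 5 lower in PyMT-N than in PyMT-M. Gas5, higher in AT3 and 4T1, had the median of this list at −0.13 and −0.12 in the same comparisons. Slc3a2, an amino acid transporter subunit encoded beside Snhg1, fell by 0.60 in 4T1 against 67NR and by 0.91 in AT3 against E0771, where Snhg1 was higher. It had 106 to 112 CPM in PyMT-N against 231 to 245 CPM in PyMT-M, where Snhg1 was at 0.11 and not called. In 2208L it had 126 to 149 CPM against 107 to 132 CPM in T11, where Snhg1 was at −0.31. Zbtb37, which lies head to head with Gas5, was higher in 4T1 than in 67NR by 0.72. It stood near the receptor level in both, at a mean of 1.51 times in 4T1 and 1.27 times in 67NR. The receptor level was itself 0.376 to 0.554 CPM per kb in 4T1 against 0.291 to 0.314 in 67NR.

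Dleu2 was near background in the lines. It had 1.06 to 8.00 CPM (4 to 46 counts), which per kb of exon was 0.501 to 2.54 times the receptor level, and 8 of 24 libraries were below that level. PyMT-N (1.23, 1.06 and 1.87 CPM) and PyMT-M (5.65, 3.75 and 1.46 CPM) differed by −1.11 ± 0.44 log2 (adjusted p = 0.0321). Library 3 of PyMT-M lay within the range of PyMT-N, and the call was lost without PyMT-M library 1 (−0.51) or 2 (−1.13), without PyMT-N library 1 (−0.97) or 2 (−0.99) and by DESeq2 (adjusted p = 0.0645). In the other 3 pairs Dleu2 was not called. Trim13, an E3 ubiquitin ligase gene beside Dleu2, was higher in 4T1 than in 67NR by 2.10.

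Kcnq1ot1 was the one imprinted member well above the receptor level in the lines, at 4.17 to 16.2 times per kb, and 6 of 24 libraries passed 10 times. It had 187, 215 and 204 CPM in 4T1 against 429, 438 and 395 CPM in 67NR, a log2 difference of −1.23 ± 0.09 (adjusted p = 2.7e-21). In 2208L it had 85.5, 77.8 and 82.1 CPM against 231, 239.9 and 202 CPM in T11 (−1.33 ± 0.10, adjusted p = 2.05e-21). AT3 had 275, 244 and 249 CPM against 135, 128 and 152 CPM in E0771 (0.77 ± 0.09, adjusted p = 7.56e-12). In none of these 3 pairs did the libraries overlap. PyMT-N (131, 113 and 123 CPM) and PyMT-M (142, 172 and 152 CPM) differed by −0.03, not called, and by −0.33 without factors (adjusted p = 0.000393). The order ran from 67NR (421 ± 22.9 CPM) over AT3 (256 ± 16.7), T11 and 4T1, which overlapped, to 2208L at 81.8 ± 3.85 CPM, below every other line.

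Kcnq1 itself, the potassium channel gene that Kcnq1ot1 runs through, was not called in any of the 4 line pairs (−0.09 in PyMT-N against PyMT-M, −0.10 in 4T1 against 67NR, −0.11 in 2208L against T11 and 0.46 in AT3 against E0771). It had only 5 to 30 counts per line library and stood 1.85 to 6.15 times the receptor level, so no line library was above background. Differences in Kcnq1 could thus be missed. Of 8 coding genes of the domain tested, 3 were higher and 2 lower in PyMT-N than in PyMT-M (median 0.22, against −0.06 over all genes), 2 higher and 3 lower in AT3 than in E0771 (0.55, against 0.08), 2 higher and 2 lower in 4T1 than in 67NR (−0.10, against 0.11), and 2 higher and 1 lower in 2208L than in T11 (0.04, against −0.03). Phlda2, a growth-restraining gene of the placenta, fell by 4.33 in AT3 against E0771 and was higher by 4.71 in 4T1 than in 67NR and by 1.39 in 2208L than in T11. It fell by 1.58 in PyMT-N against PyMT-M. Cd81, which encodes a tetraspanin, was higher in PyMT-N by 7.30, in AT3 by 6.79, in 4T1 by 3.29 and in 2208L by 0.99. Slc22a18 fell by 1.80 in AT3 and by 1.79 in PyMT-N.

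Meg3, Rian and Mirg lay near the receptor level in every line. Per kb Meg3 stood 0.747 to 2.53 times that level, Rian 0.499 to 1.64 times and Mirg 0 to 1.99 times, and no line library reached 10 times for any of them. Meg3 had 13.5, 16.3 and 10.8 CPM in 4T1 against 5.29, 8.96 and 8.16 CPM in 67NR, without overlap (0.67 ± 0.25, adjusted p = 0.0226), and Rian 5.98, 8.81 and 15.7 CPM against 4.37, 4.36 and 6.06 CPM (0.93 ± 0.29, adjusted p = 0.00652), with 1 value overlapping. The Meg3 call was lost without 67NR library 1 (0.47) or 4T1 library 1 (0.65) or 2 (0.55) and by DESeq2, and the Rian call without 4T1 library 3 (0.42). In these 2 lines the receptor level differed too, so that Meg3 stood 1.54 times it in 4T1 and 1.33 times in 67NR, and Rian 1.08 and 0.885 times (geometric means).

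The same 2 RNAs were higher in AT3 than in E0771 and lower in 2208L than in T11. Meg3 had 16.1, 7.65 and 7.90 CPM in AT3 against 4.43, 5.30 and 5.80 CPM in E0771 (0.81 ± 0.26, adjusted p = 0.00688), lost without AT3 library 1 (0.53). Rian had 8.99, 8.35 and 6.91 CPM in AT3 against 5.37, 3.73 and 4.03 CPM in E0771 (0.79 ± 0.29, adjusted p = 0.0194), lost without E0771 library 2 (0.72) or 3 (0.74) or AT3 library 2 (0.74) and by DESeq2 (adjusted p = 0.0623). In 2208L against T11, Meg3 was at −0.74 ± 0.29 (adjusted p = 0.036) and Rian at −0.97 ± 0.36 (adjusted p = 0.0236). Of the 6 libraries of that pair, leaving out any of 5 ended the Meg3 call: T11 library 1 (−0.67), 2 (−0.79) or 3 (−0.74) or 2208L library 1 (−0.78) or 3 (−0.60). The Rian call was lost without T11 library 1 (−0.94) or 2208L library 1 (−0.66). Coding genes of the domain went the same way in that pair: of 4 tested, 3 were lower in 2208L than in T11 and 0 higher, namely Dlk1 (−2.47), Begain (−2.12) and Wdr25 (−1.34), although Dlk1, a Notch ligand homologue, had only 0.257 to 5.77 CPM over the lines. In the other 3 line pairs no coding gene of the domain was called.

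Mirg had 0 to 8 counts per line library and was tested in no line comparison. The library at 0, 67NR library 1, allows up to 0.689 CPM, taking 3 counts as the limit for a count of 0.

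**Figure D2:**
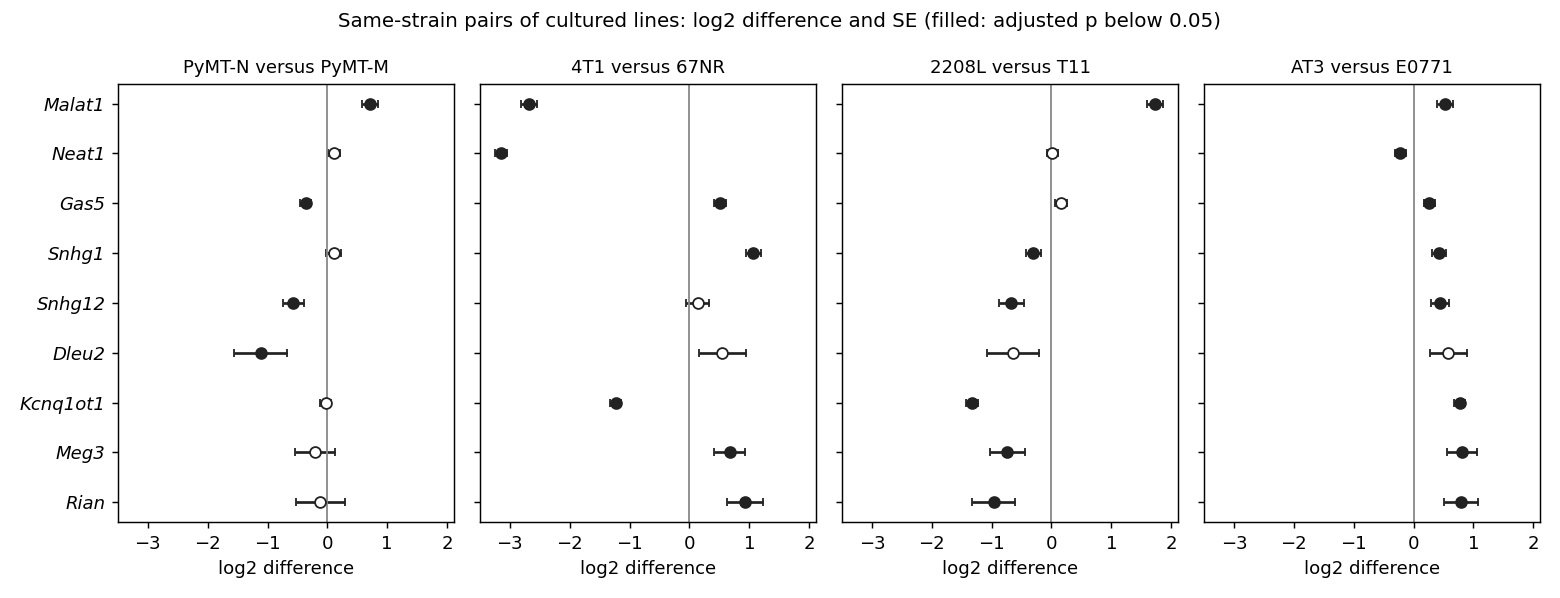
Log2 difference with its SE for each member in the 4 line pairs, first-named line minus second, with filled points where the adjusted p was below 0.05. Malat1 and Neat1 reach −2.68 and −3.14 in 4T1 against 67NR, and Kcnq1ot1 lies at −1.23 and −1.33 in 2 of the 4 pairs.

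Many genes differed between the lines, so the members' counts are given beside those over all genes. Across the 8 lines 9 of 9 tested members differed in some way, against a background of 89.1% of all genes tested. In PyMT-N against PyMT-M 4 of 9 were called (1 higher, 3 lower), against 44.6%, with a median log2 difference of −0.12 against −0.06 over all genes. In 4T1 against 67NR 7 of 9 were called (4 higher, 3 lower), against 47.8%, and the medians were 0.51 and 0.11. In 2208L against T11 6 of 9 were called (1 higher, 5 lower), against 41.4%, and the medians were −0.65 and −0.03. In AT3 against E0771 8 of 9 were called (7 higher, 1 lower), against 45.7%, with medians of 0.53 and 0.08. DESeq2 called 5 of the 9 members in that last pair. Scaling by genes above background moved the median of all genes by 0.15 in 4T1 against 67NR and by 0.21 in AT3 against E0771. It raised the share of higher among called genes to 61.4%, against 49.3%, in the first and to 63.8%, against 44.6%, in the second. No member's sign turned in those 2 pairs.

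In sorted cells the library scale decided the sign of several members, so each value is given with its scale. The 2 cell types differed in receptor level and in their share of Rn45s, and bulk libraries cannot tell fewer cells of a type from less RNA per cell. Over all genes, macrophages against neutrophils gave 39.9% higher among the called with TMM factors over all genes tested, 28.6% with RLE factors, 16.9% without factors and 9.68% with TMM factors from genes above background. The median of all genes was −0.53, −0.89, −1.29 and −1.60 with these 4 scales. Called by the first, 76% of all genes tested differed between macrophages and neutrophils, and 6 of 10 members did (3 higher, 3 lower, median 0.31).

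Meg3, Rian and Mirg were lower in macrophages whichever of the 3 scales in the plot of scalings was used. Rian had 5.98, 2.28 and 4.52 CPM in T11 macrophages against 45.2, 53.0 and 47.4 CPM in T11 neutrophils. In AT3 it had 4.25, 2.02 and 0.741 CPM against 71.1, 29.2 and 28.6 CPM, without overlap in either tumour. The log2 differences over the 4 tumours were −1.90 ± 0.29 for Rian (adjusted p = 2.29e-07), −1.22 ± 0.22 for Meg3 (5.08e-06) and −1.40 ± 0.51 for Mirg (0.0134). Without the T11 tumour Mirg was at −1.43 (adjusted p = 0.0592). Per kb, however, these RNAs stood near the receptor level in both cell types. Medians over 12 libraries each were 2.29 times the receptor level in macrophages and 1.84 times in neutrophils for Meg3, 0.921 and 1.07 times for Rian, and 0.355 and 0.798 times for Mirg.

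Their ratio to the receptor genes, averaged over tumours, differed by 0.30 log2 for Meg3 (exact permutation test within tumours, 2-sided, p = 0.144) and by −0.60 for Rian (p = 0.149). Without the T11 tumour Meg3 over receptor genes was higher in macrophages by 0.49 (exact permutation p = 0.0385, not adjusted). Coding genes of the domain were lower too: 5 of 5 tested fell in macrophages (median −1.54, against −0.53 over all genes), Begain by 2.32, Rtl1 by 1.64, Dlk1 by 1.54, Dio3 by 1.34 and Wdr25 by 0.95. Of 16 other imprinted genes tested 13 fell and 0 were higher (median −1.09). Over all genes tested 76% were called in this comparison, 9304 lower and 6180 higher, so that 13 of 16 called is near the share over all genes. Dlk1 had a median of 1.34 times the receptor level in macrophages and 1.88 times in neutrophils. The higher receptor level of neutrophils thus moved together with each of these groups, and its part in them was not tested.

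**Figure D3:**
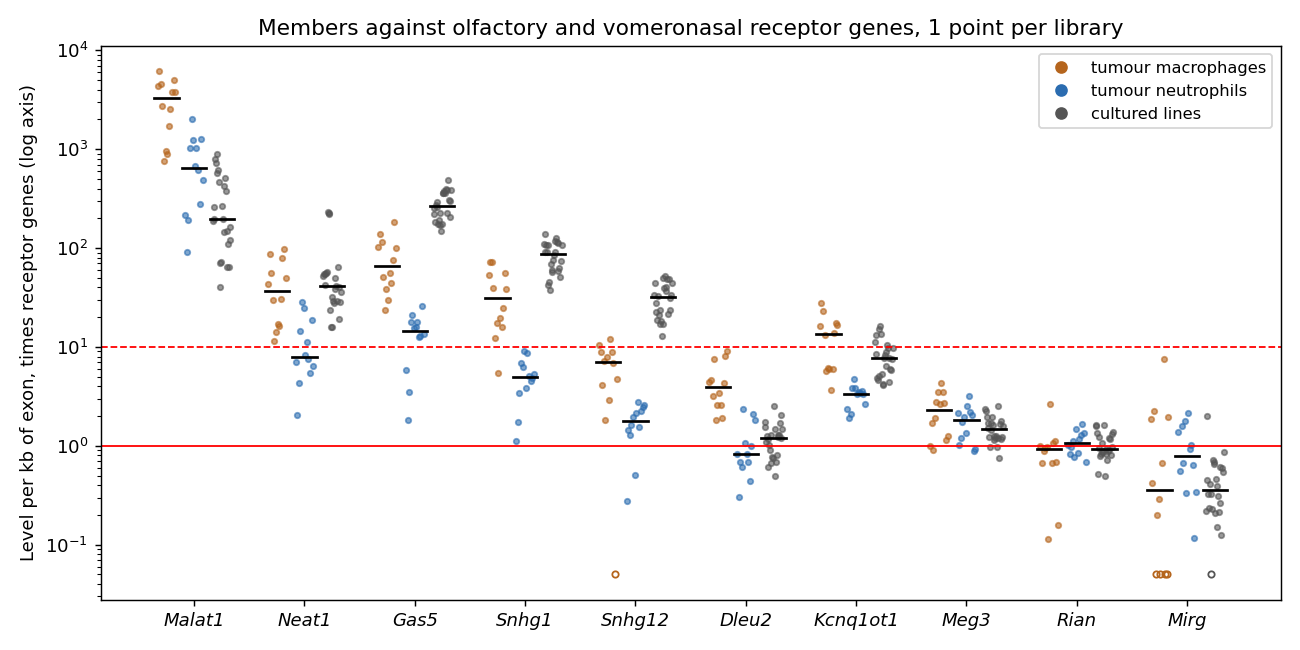
Level per kb of exon of each member divided by that of receptor genes in the same library, on a log axis, for macrophages, neutrophils and lines; red lines mark 1 (solid) and 10 times (dashed), black bars are medians, and open markers at the bottom are libraries with 0 counts. Malat1 lies above 40 times in every library, whereas Meg3 and Rian stay below 5 times in all 48.

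Kcnq1ot1 shows how far the scale matters. Its CPM were 502, 483 and 591 in T11 macrophages against 531, 629.9 and 519.8 in T11 neutrophils, 266, 305 and 351 against 407, 316 and 393 in 2208L, 329, 206 and 251 against 489, 432 and 546 in E0771, and 268, 262 and 405 against 783, 365 and 564 in AT3. The log2 difference was 0.23 with TMM factors over all genes (adjusted p = 0.124), −0.54 without factors (0.000152) and −0.86 with factors from genes above background (1.25e-07). Its ratio to the receptor genes was higher in macrophages in every tumour without overlap. It was 22 against 2.11 times in T11, 7.74 against 4.13 in 2208L, 5.07 against 3.41 in E0771 and 15.9 against 3.16 in AT3. The mean difference of that log2 ratio was 1.80 (exact permutation test within tumours, 2-sided, p = 1.25e-05, the smallest that 160000 arrangements can give; 8.75e-05 adjusted over 7 ratios). It was 1.27 without the T11 tumour (exact permutation p = 0.00025). In CPM, by contrast, the macrophage mean lay below the neutrophil mean in every tumour (525 against 560 in T11). The receptor level ran from 0.163 to 0.608 CPM per kb in macrophages and from 0.721 to 3.53 in neutrophils. The ratio therefore also moves with the receptor level, whose part in it was not tested.

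Malat1 had 9914, 7957 and 8819 CPM in T11 macrophages against 3662, 2250.5 and 3608 CPM in T11 neutrophils. In 2208L it had 4152, 3043 and 4122 CPM in macrophages against 8202, 10076 and 9384 CPM in neutrophils. These 2 tumours went opposite ways, each without overlap, and in E0771 (3656, 7246 and 8076 against 7550.4, 9615 and 7246 CPM) and AT3 (5551, 5757 and 6846 against 4585, 10567 and 7848 CPM) the libraries overlapped. Over 4 tumours the log2 difference was 0.59 ± 0.23 with TMM factors (adjusted p = 0.0169), 0.25 with RLE factors, −0.14 without factors and −0.44 with factors from genes above background. Without the T11 tumour it was −0.23 and not called. Over receptor genes the mean log2 ratio differed by 2.21 (exact permutation p = 0.00085, 0.00298 adjusted over 7 ratios), with 4.99 in T11, 2.90 in AT3, 1.06 in E0771 and −0.12 in 2208L. As for Kcnq1ot1, the part of the receptor level in this ratio was not tested. Neat1 was not called with TMM factors (0.31 ± 0.16, adjusted p = 0.0737) and was lower without factors (−0.42) and with factors from genes above background (−0.72). It was above background in 12 of 12 macrophage libraries but in 5 of 12 neutrophil libraries, where it stood 2.03 to 28.7 times the receptor level.

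Gas5 and Snhg1 were higher in macrophages by 1.01 ± 0.16 (adjusted p = 3.65e-07) and 1.09 ± 0.22 (2.41e-05) with TMM factors. These calls rested on T11, where Gas5 had 126, 97.4 and 119 CPM in macrophages against 53.3, 24.5 and 35.1 CPM in neutrophils. Without T11 the differences were 0.29 and 0.40, and with factors from genes above background −0.04 and 0.000834, none called. In neutrophils Snhg1 stood 1.12 to 9.04 times the receptor level (5 to 25 counts) and was above background in 0 of 12 libraries. Gas5 stood 1.84 to 25.7 times and was above it in 9 of 12. In macrophages Gas5 was above background in 12 of 12 libraries and Snhg1 in 11. Snhg12, with 0 to 12 counts per macrophage library and 1 to 10 per neutrophil library, differed by 0.31, not called, and by −0.74 with factors from genes above background. Its 1 library at 0, AT3 macrophage 2, allows up to 2.02 CPM. Dleu2 differed by 0.52 (adjusted p = 0.0626), and by −0.52 with those factors, but stood a median of 3.90 times the receptor level in macrophages and 0.823 times in neutrophils. mRNAs with a pyrimidine start were higher in macrophages in 22 of 22 cases (median 2.12) and SR and speckle proteins in 14 of 14 (median 1.33), by TMM factors. Of 13 paraspeckle proteins tested 10 were higher and 0 lower (median 0.95), with Nono at 1.87 and Pspc1 at −0.02.

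**Figure D4:**
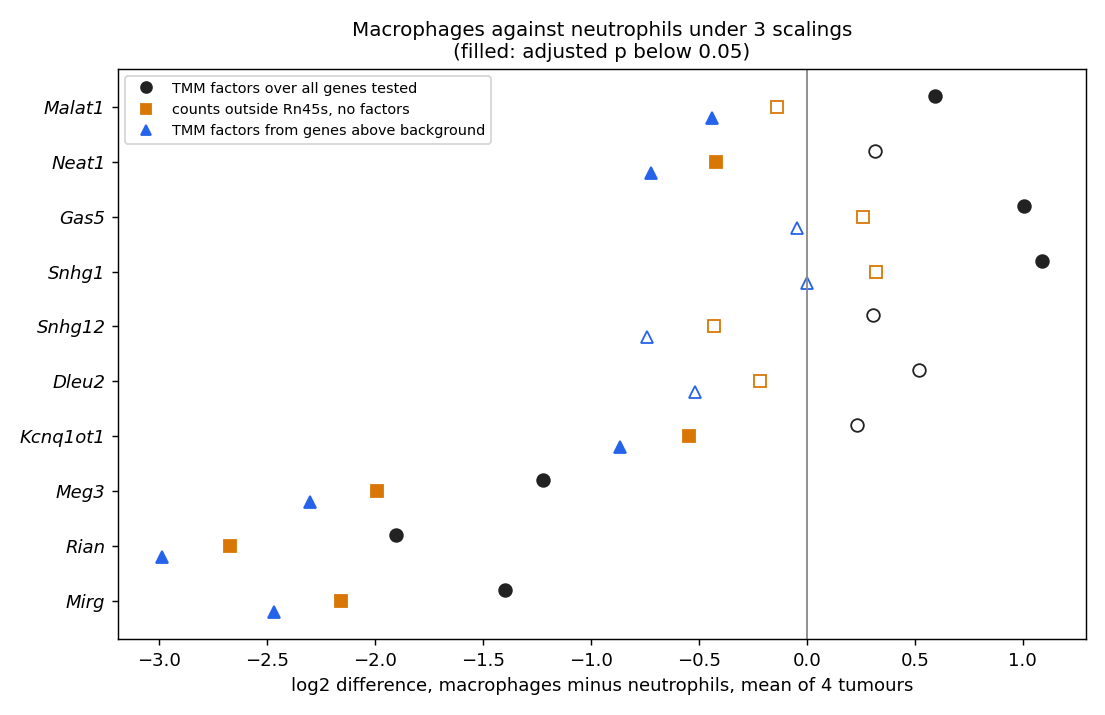
Log2 difference between macrophages and neutrophils, mean of 4 tumours, for each member with 3 scalings, filled where the adjusted p was below 0.05. Meg3, Rian and Mirg lie below 0 with all 3, whereas Malat1, Neat1 and Kcnq1ot1 lie above 0 with TMM factors over all genes (0.59, 0.31 and 0.23) and below 0 with the other 2.

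Ratios between members do not depend on the scale. Malat1 over Neat1 differed between macrophages and neutrophils by 0.26 log2 (exact permutation p = 0.136), Malat1 over Gas5 by −0.38 (p = 0.0645, 0.151 adjusted over 7 ratios) and Gas5 over Snhg1 by −0.08 (p = 0.771). By tumour, Malat1 over Gas5 was 78.3 against 86.6 in T11, 65.6 against 142 in 2208L, 69.3 against 91.8 in E0771 and 69.8 against 63.1 in AT3, and only in 2208L did the libraries not overlap. A p above the threshold does not show that the ratios were the same.

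The macrophage against neutrophil difference itself varied between tumours for 6 of 10 members (Malat1, Neat1, Gas5, Snhg1, Kcnq1ot1 and Meg3), against 27.5% of all genes tested. Which members these were depended on the scale. Snhg1 was not called with factors from genes above background (range 1.47, adjusted p = 0.209) or without factors (1.77), nor was Kcnq1ot1 with these or RLE factors (0.87, 0.80 and 1.14). Rian (2.76, adjusted p = 0.0547) was called with RLE factors (2.85), by DESeq2 (2.90), with factors from genes above background (3.08) and without factors (3.09). In T11, 7 of 10 members were called (5 higher, 2 lower), against 65.8% of all genes. Malat1 was at 2.75 ± 0.48 (adjusted p = 3.95e-06), Neat1 at 1.62 ± 0.33, Gas5 at 2.83 ± 0.34, Snhg1 at 2.80 ± 0.45 and Kcnq1ot1 at 1.19 ± 0.28, and Meg3 and Rian at −2.43 ± 0.47 and −2.24 ± 0.58. With factors from genes above background Neat1 was at −0.24, Kcnq1ot1 at −0.72 and Snhg1 at 0.90 (adjusted p = 0.0958) in that tumour. In 2208L 1 of 10 was called with TMM factors, against 8.24%: Neat1 had 135, 138 and 177 CPM in macrophages against 343, 430.3 and 567 CPM in neutrophils (−1.29 ± 0.33, adjusted p = 0.00756), lost without 2208L neutrophil 3 (−1.13). Malat1 was called lower in that tumour by DESeq2 (−1.09), with factors from genes above background (−1.36) and without factors (−1.29). So was Rian (−1.75, −1.99 and −1.93). In AT3 2 of 10 were called with TMM factors, against 49.9%: Meg3 (−1.92 ± 0.47, adjusted p = 0.000921) and Rian (−3.26 ± 0.63, 5.28e-05). In E0771 edgeR with TMM factors called 0 of 10 members, against 18.2% of all genes, and DESeq2 called 1, Kcnq1ot1 (−0.61, adjusted p = 0.0258). By edgeR with TMM factors none of the 10 had an unadjusted p below 0.05. With other scales edgeR called Kcnq1ot1 lower too, without factors (−0.90, adjusted p = 0.0104) and with factors from genes above background (−1.21, 0.00083). Meg3 was called lower with the latter (−1.39, 0.0246). With TMM factors, leaving out the libraries labelled BALB/C left no member called.

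**Figure D5:**
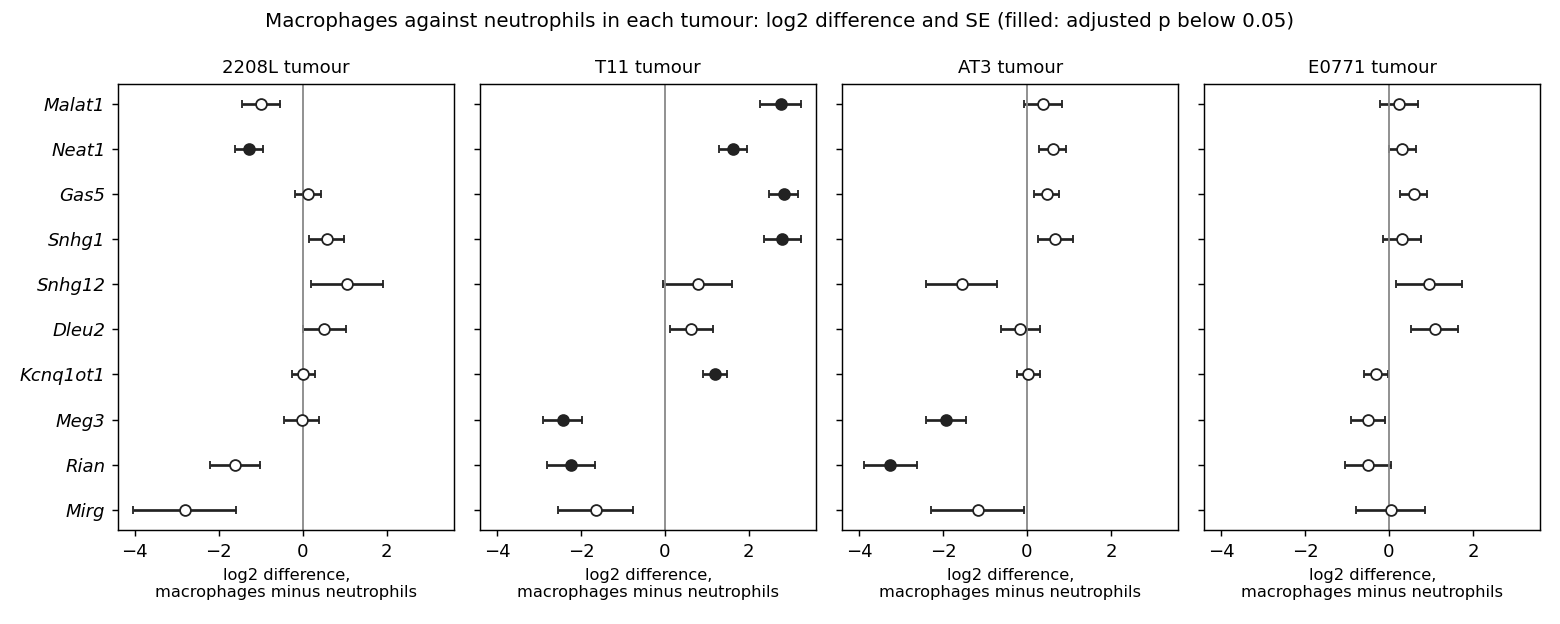
Log2 difference with its SE between macrophages and neutrophils for each member in each of 4 tumours, from TMM-scaled counts, filled where the adjusted p was below 0.05. Malat1 lies at 2.75 in T11 and −0.99 in 2208L, and Rian reaches −3.26 in AT3.

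Among neutrophils of the 4 tumours 3 of 9 tested members differed (Neat1, Gas5 and Dleu2), against 31.4% of all genes tested. Neat1 was not among them with factors from genes above background (adjusted p = 0.549) or without factors (0.0829). Gas5 had 75.6, 56.5 and 63.9 CPM in 2208L neutrophils against 53.3, 24.5 and 35.1 CPM in T11 neutrophils, without overlap (1.39 ± 0.32, adjusted p = 0.00148). In 2208L against T11, 3 of 9 were called with TMM factors, all higher, against 31.9%: besides Gas5 these were Neat1 (1.47 ± 0.40, adjusted p = 0.00558) and Malat1 (2.18 ± 0.67, 0.0135). Malat1 was lost without T11 neutrophil 2 (1.98) or 3 (2.31) or 2208L neutrophil 2 (2.06). With factors from genes above background Gas5 was at 0.0322 and Neat1 at 0.11 in this pair, and Kcnq1ot1 at −1.41. Meg3, Rian and Mirg were not called with TMM factors (−0.69, −0.63 and −1.24). They were called lower in 2208L with factors from genes above background (−2.08, −2.03 and −2.67) and without factors (−1.35, −1.28 and −1.92). Meg3 (−0.71) and Mirg (−1.24) were also called lower in a fit of these 2 groups alone. Markers of macrophages summed to 5476 to 7523 CPM in 2208L neutrophils against 858 to 1545 CPM in T11 neutrophils, and their part in these differences was not tested. The share of higher among all called genes was 60.9%, and 3.54% with factors from genes above background. T11 neutrophils were also the group with the lowest Kcnq1ot1 over receptor genes, 2.11 times, against 4.13 times in 2208L neutrophils.

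AT3 neutrophils had more Dleu2 than E0771 neutrophils, 26.9, 28.2 and 47.1 CPM against 14.9, 10.5 and 8.5 CPM (17, 28 and 33 counts against 9, 7 and 4), without overlap. It was the 1 of 9 members called in that pair (1.84 ± 0.46, adjusted p = 0.0194), against 4.19% of all genes. The call was lost without E0771 neutrophil 1, which is labelled BALB/C (2.04), without E0771 neutrophil 2 (1.79) or 3 (1.69), and without AT3 neutrophil 3 (1.57). It was lost too with factors from genes above background (1.42) and without factors (1.56). Per kb of exon Dleu2 stood 1.01 to 2.10 times the receptor level in AT3 neutrophils and 0.441 to 0.826 times in E0771 neutrophils.

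Among macrophages 6 of 9 tested members differed between tumours (Malat1, Neat1, Gas5, Snhg1, Kcnq1ot1 and Meg3), against 35.5% of all genes tested. Gas5 and Snhg1 were not among them with factors from genes above background (adjusted p = 0.121 and 0.105) or without factors (0.0996 and 0.0597), nor Snhg1 without the libraries labelled BALB/C (0.0574). In 2208L against T11, 5 of 9 were called (1 higher, 4 lower), against 15.7%. Malat1 was lower in 2208L macrophages (−1.34 ± 0.28, adjusted p = 0.000623), and so were Neat1 (−1.20 ± 0.24, 0.00047), Kcnq1ot1 (−0.89 ± 0.24, 0.00832) and Gas5 (−1.08 ± 0.31, 0.0134), the last lost without 2208L macrophage 2 (−0.97) and with factors from genes above background (−0.84). Neat1 had 135, 138 and 177 CPM in 2208L macrophages against 296, 337 and 320.4 CPM in T11 macrophages, and neither it nor Malat1 overlapped. Meg3 was higher in 2208L, with 7.47, 28.8 and 38.3 CPM against 5.98, 5.70 and 4.52 CPM (1.97 ± 0.58, adjusted p = 0.0168). Leaving out any of the 3 T11 libraries (1.79 to 2.00) or 2208L macrophage 2 (1.81) or 3 (1.56) ended that call. The receptor level was 0.217, 0.578 and 0.608 CPM per kb in 2208L macrophages against 0.329, 0.185 and 0.277 in T11 macrophages, and over it Meg3 stood 2.64 against 1.16 times. Markers of neutrophils summed to 723 to 927 CPM in 2208L macrophages and 43.4 to 94.1 CPM in T11 macrophages, and their part in these differences was not tested.

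In AT3 against E0771 macrophages 3 of 9 were called (2 higher, 1 lower), against 18.4% of all genes. Neat1 had 339.6, 329 and 266 CPM in AT3 against 209.6, 205 and 287 CPM in E0771 (0.88 ± 0.24, adjusted p = 0.0111), with 1 value overlapping. It was lost without E0771 macrophage 2 (0.79) or AT3 macrophage 2 (0.85), with factors from genes above background (0.57) and without factors (0.38). Kcnq1ot1 (0.72 ± 0.24, adjusted p = 0.037) was lost without E0771 macrophage 2 (0.59) or 3 (0.78) or AT3 macrophage 2 (0.86) or 3 (0.56), and with the replicate numbers as a block (adjusted p = 0.0503). It was also lost with RLE factors (0.63), with factors from genes above background (0.41), without factors (0.22) and in a fit of these 2 groups alone (0.53). Meg3 had 10.2, 3.36 and 5.93 CPM in AT3 against 28.6, 46.8 and 28.4 CPM in E0771, without overlap (−1.94 ± 0.57, adjusted p = 0.0177). That call was lost without E0771 macrophage 2 or AT3 macrophage 2 or 3, and with 1 library left out the value ran from −2.34 to −1.59. The receptor level was 0.207, 0.163 and 0.26 CPM per kb in AT3 macrophages against 0.590, 0.604 and 0.453 in E0771 macrophages, and over it Meg3 stood 1.58 against 3.41 times. Markers of some other cells moved the same way. Those of endothelium summed to 31.9 to 46.7 CPM in AT3 against 240.0 to 279.6 CPM in E0771, and those of T cells to 5.38 to 10.4 against 48 to 85.8 CPM. Those of neutrophils summed to 95.9 to 146 against 279.1 to 353 CPM, and those of B cells to 6.05 to 18.7 against 35.6 to 103 CPM. Markers of fibroblasts (214 to 338 against 212 to 265 CPM) and of epithelium (108 to 160 against 55.8 to 133 CPM) were not lower in AT3, and their libraries overlapped. The part of any of these cells in the Meg3 difference was not tested. Mirg was tested in neither macrophage pair: in E0771 macrophages its counts were 0, 2 and 28, so that 1 library held nearly all of them.

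Set against the cultured lines of the same 4 tumours, Malat1 was higher in both cell types, by 3.45 ± 0.18 log2 in macrophages and 2.88 ± 0.17 in neutrophils. Gas5 was lower, at −2.17 ± 0.13 in macrophages and −3.15 ± 0.14 in neutrophils. Snhg1 stood at −1.78 ± 0.14 and −2.85 ± 0.16, and Snhg12 at −2.49 ± 0.24 and −2.76 ± 0.25. These 4 kept their sign with each scaling. Neat1 was lower with TMM factors, at −0.43 ± 0.13 in macrophages and −0.72 ± 0.14 in neutrophils, but stood at 0.08 and 0.61 with factors from genes above background and at 0.17 and 0.59 without factors. Dleu2 was higher by 1.40 ± 0.23 in macrophages and 0.90 ± 0.25 in neutrophils. Over receptor genes, however, its medians were 3.90 in macrophages, 0.823 in neutrophils and 1.21 in all 24 line libraries. In neutrophils 7 of 12 libraries lay below the receptor level, and no library of any kind was above background. Of 10 members 7 were called in macrophages against lines, where 55.5% of all genes were, and 10 in neutrophils against lines, where 84.3% were. The members' medians were −0.06 and 0.59, beside −0.43 and 0.57 over all genes.

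Meg3, Rian and Mirg were higher in neutrophils than in lines by 1.55, 1.40 and 2.18 log2, while in macrophages they were at 0.30, −0.52 and 0.74, not called. Meg3 in macrophages was called higher than in lines with RLE factors (0.74, adjusted p = 0.00301), by DESeq2 (0.74), with factors from genes above background (0.81), without factors (0.90) and without the T11 tumour (0.84). Rian was called lower there without the libraries labelled BALB/C (−0.80, adjusted p = 0.011). Over receptor genes Meg3 had medians of 2.29 in macrophages, 1.84 in neutrophils and 1.47 in all 24 line libraries, and Rian of 0.921, 1.07 and 0.938. Kcnq1ot1 was higher by 0.48 ± 0.11 in macrophages and 0.27 ± 0.11 in neutrophils (adjusted p = 0.0191), the second lost when any of 6 of the 24 libraries was left out (lowest 0.22, without T11 line 3). Its medians over receptor genes were 13.5 in macrophages, 3.38 in neutrophils and 7.79 in all 24 line libraries. Of 22 pyrimidine-start mRNAs 20 fell in macrophages against lines and 0 were higher (median −1.37), and 22 of 22 fell in neutrophils (median −3.47). Of 9 other snoRNA hosts tested 8 fell in macrophages (median −1.71), and 7 fell and 1 was higher in neutrophils (median −2.52). Malat1 over Gas5 in single libraries was 46.8 to 107 in macrophages, 40.3 to 178 in neutrophils and 0.536 to 5.67 in the lines of these 4 tumours. Lines were cultured and sorted cells came from dissociated tumours, so that cell type, culture and the preparation of RNA cannot be told apart in this comparison.

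Genes whose log2 CPM followed a member most closely over the 24 line libraries were sought among 11828 genes. The points share lines, so that r rests on 8 groups, and the values are a description. Nearest to Malat1 were Ppap2b (Pearson's r 0.91), Dynll2 (0.90) and S100a16 (0.89). For Neat1 they were Mier3 (0.95), Srek1 (0.95) and Kansl2 (0.94), and for Kcnq1ot1 Zfp367 (0.96), Fam171b (0.94) and Impact (0.94), the last an imprinted gene on another chromosome. Gas5 had the ribosomal protein gene Rpl7 nearest (0.94), Snhg12 had Rps24 (0.88), and Snhg1 had Ppa2 (0.90), Slc29a2 (0.90) and the snoRNP protein gene Nop56 (0.89). Meg3 and Rian were nearest to Gldc (0.89) and Pard3b (0.91). Over the means of the 8 lines r for these pairs ran from 0.92 to 0.99.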

How the data were processed

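RNA-seq was done on 48 mouse libraries in 16 groups of 3. The authors deposited raw counts per gene, and the submitters' processing notes name bcl2fastq 2.17, STAR 2.4.2a and mm10; the annotation and strand used for counting are not given in the sources used here. One column name was taken as PyMT-N by elimination. Log2 differences came from these counts by edgeR 4.0.16 (quasi-likelihood test, TMM factors, genes kept by filterByExpr with a minimum count of 10, Benjamini-Hochberg adjustment over all genes tested, calls at an adjusted p below 0.05). Lines were fitted together, as were sorted cells, each sorted cell type, and sorted cells with the 4 matching lines. CPM were computed from the deposited counts outside Rn45s. Alternatives were DESeq2 1.42.0, other factors, no count filter, left-out libraries and a replicate block. Tested on simulated data, each fit recovered most of the larger set changes, but most of the smaller ones only in the lines, so that small differences in sorted cells can be missed. The members, gene lists and the scalings by background were chosen with earlier results of these data known. Named genes are the members, at most 2 listed genes per direction and comparison with the largest called differences, a few listed genes in any case (Dlk1, Kcnq1, Sfpq, Zbtb37, Slc3a2 and Trim13 among them), and the 3 genes most like a member by Pearson's r; Nono, Pspc1 and Wdr25 were also named after their values were seen. Same-numbered libraries did not deviate together (1 of 12 macrophage and neutrophil pairs correlated above 0.1), so they were not treated as pairs. Tests of macrophages against neutrophils therefore do not allow for pairs from 1 animal.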

Additional observations from a re-analysis of the deposited data

Results flagged for a closer look

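For 6 members the macrophage against neutrophil difference differed between the 4 tumours by an interaction test (edgeR's quasi-likelihood test, adjusted over all genes), and each range is the highest minus the lowest of the 4 log2 differences. Malat1 had a range of 3.75 (adjusted p = 0.000195), from 2.75 in T11 to −0.99 in 2208L. Neat1 had a range of 2.91 (4.93e-05), from 1.62 in T11 to −1.29 in 2208L. Gas5 had a range of 2.70 (3.33e-05), from 2.83 in T11 to 0.13 in 2208L. Snhg1 had a range of 2.48 (0.00534), with 2.80 in T11 and 0.31 in E0771, and the call was lost without T11 neutrophil 1 (2.09), with factors from genes above background (1.47) and without factors (1.77). Kcnq1ot1 had a range of 1.51 (0.0129), with 1.19 in T11 and −0.31 in E0771, lost without T11 neutrophil 3 (1.40), with RLE factors (1.14), with factors from genes above background (0.87) and without factors (0.80). Meg3 had a range of 2.4 (0.00634), from −2.43 in T11 to −0.03 in 2208L. In T11 the share of higher among all called genes was 44.7%, and 8.66% with factors from genes above background.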

How the results depend on the processing

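Scaling moved the sorted-cell results most. Without factors Malat1, Neat1 and Kcnq1ot1 stood at −0.14, −0.42 and −0.54 in macrophages against neutrophils, Kcnq1ot1 at −0.11 in T11 and −0.88 in AT3, Neat1 at −0.20 in PyMT-N against PyMT-M, and at 0.59 and 0.17 in neutrophils and macrophages against lines. Members called were then 3 in 2208L, 1 in E0771 and 4 in AT3 macrophages against neutrophils, 5 among neutrophils, 6 in 2208L against T11 neutrophils (8820 genes) and 0 in AT3 against E0771 neutrophils. With factors from genes above background Malat1, Neat1, Gas5 and Kcnq1ot1 stood at −0.44, −0.72, −0.0435 and −0.86 in macrophages against neutrophils. In T11 Neat1, Dleu2 and Kcnq1ot1 stood at −0.24, −1.22 and −0.72, in AT3 Gas5 and Kcnq1ot1 at −0.64 and −1.18, Kcnq1ot1 at −1.41 in 2208L against T11 neutrophils, and Neat1 at 0.61 and 0.0804 in neutrophils and macrophages against lines. Called were 3 members in 2208L, 2 in E0771 (5836 genes), 6 in AT3, 7 for any difference among neutrophils (11737 genes), 5 in 2208L against T11 neutrophils (12927), 0 in AT3 against E0771 neutrophils (432) and 1 in AT3 against E0771 macrophages. DESeq2 called 5 members in AT3 against E0771 lines, 3 in 2208L and 1 in E0771 macrophages against neutrophils, and put Neat1 in macrophages against lines at 0.0148, where RLE factors gave 0.0149. Fitting only the compared groups called 5 members in 2208L against T11 neutrophils and 287 genes in AT3 against E0771 neutrophils. Without the E0771 libraries labelled BALB/C the second had 205 genes and 0 members. Without T11, macrophages versus neutrophils had 10311 genes and 2 members, and Malat1 stood at −0.23. The cause of these changes was not tested.

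Leaving out 1 library gave 740 to 1973 genes and 0 to 2 members for 2208L macrophages against neutrophils, 2374 to 3799 genes for E0771, 3702 to 7712 genes and 2 to 6 members among neutrophils, 3333 to 4797 genes for 2208L against T11 neutrophils, and 196 to 2634 genes and 0 to 3 members for AT3 against E0771 neutrophils. It gave 1506 to 2578 genes and 3 to 5 members for 2208L against T11 macrophages, 1409 to 2862 genes and 0 to 3 members for AT3 against E0771 macrophages, and 2 to 4, 3 to 5 and 5 to 6 members for PyMT-N against PyMT-M, 2208L against T11 and AT3 against E0771 lines. With a replicate block, macrophages versus neutrophils had 15385 genes (15484 without) and AT3 versus E0771 neutrophils 562 (761 without). Counts of 10 or fewer limit Snhg12 and Mirg in most sorted libraries.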
